A study of Mus musculus with 4 samples.

Results

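The SLC25 family encodes the carriers that move metabolites across the inner mitochondrial membrane, and its expression was described in the spleen of KLHL3 knock-in mice. Members were the genes of the deposited table whose mouse symbol is Slc25a followed by a number, without Slc25a28, Slc25a37, Slc25a38 and Slc25a39, which carry iron, glycine or glutathione and belong to heme and iron transport. This gave 41 of 23763 genes. The 2 groups were KLHL3-KI spleen and wild-type (WT) spleen, each of C57BL/6J mice at baseline and each with 2 libraries of ribosomal RNA-depleted, directional RNA-seq. The labels give neither the knock-in allele nor the age of the mice, and they do not say that the libraries come from separate animals, so p-values measure only the spread between these libraries, which may be technical.

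SLC25 proteins share a fold of repeated membrane-spanning modules and are loaded into the inner membrane through the TIM22 translocase. Each carries a small set of substrates, such as adenine nucleotides, phosphate, amino acids, carboxylates or cofactors, and so couples cytosolic and mitochondrial metabolism. In blood-forming tissue the family is known mainly for the carriers that feed heme synthesis.

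All values below are scaled read counts, that is, the authors' normalized counts, in which 1 read was worth 0.0974 to 0.112. The libraries held 8535483 to 10933023 whole reads. Log2 fold changes were taken as KLHL3-KI over WT after adding 1 to each value, which understates changes of low genes, and are given with their standard error (SE). The limma test took in genes whose mean over the 4 libraries reached 1, and a gene passed at a Benjamini-Hochberg adjusted p under 0.05 over all 16970 genes tested. Klhl3 itself stood at 2.53 and 1.36 in the KLHL3-KI libraries and at 3.02 and 4.67 in the WT libraries and did not pass (adjusted p 0.0895 by limma).
Markers of several cell types differed between the groups. The summed value of 10 erythroid markers was 3820 and 4374 in KLHL3-KI, against 1099 and 885 in WT. For 10 cell division genes it was 3777 and 4543 in KLHL3-KI against 861 and 749 in WT, and for 10 neutrophil genes 1463 and 1999 against 160 and 73.8. All 10 members of each of these lists rose, and none was at 0. For 10 T cell genes the sum was 300 and 282 in KLHL3-KI against 546 and 502 in WT, and for 10 B cell genes 2867 and 2191 against 3833 and 3956, with 10 and 9 members lower. For 10 red pulp macrophage genes the sum was 3340 and 3556 in KLHL3-KI against 2950 and 2629 in WT, with 2 members higher and 8 that did not pass. In bulk RNA, more cells of a type and more RNA per cell cannot be told apart. The part of these shifts in the SLC25 values was not tested.

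Across the family, a few carriers differed strongly and most did not. Of the 41 members 37 were tested, of which 6 rose, 3 fell and 28 did not pass. The oxodicarboxylate carrier Slc25a21 rose by 2.46 on the log2 scale, the ATP-Mg/phosphate carrier Slc25a24 by 1.08 and the NAD carrier Slc25a51 by 1.02. The branched-chain amino acid carrier Slc25a44 rose by 0.65, the coenzyme A carrier Slc25a42 by 0.56 and the adenine nucleotide translocase Slc25a5 by 0.48. The orphan carriers Slc25a35 and Slc25a45 were among those that fell.
These counts are near those of the transcriptome. The 6 rises make 16.2% of the tested members, where 15.2% of all genes tested rose, and the 3 falls make 8.11%, where 7.56% of all genes fell. The median log2 fold change was 0.0026 over the tested members and -0.01 over all genes tested. Both KLHL3-KI values lay above both WT values for 15 tested members, where the share over all genes was 32.8%, and below them for 9, where it was 31.9%. Summed over the 41 members, the value was 1550 and 1633 in KLHL3-KI against 1253 and 1260 in WT, or 0.147% and 0.153% of the reads against 0.131% and 0.135%. With equal total reads 5 members rose and 6 fell, where 11.3% and 18.4% of all genes did. After removal of haemoglobin, immunoglobulin and mitochondrial genome genes 6 rose and 6 fell, where 12.5% and 17.7% of all genes did. After quantile normalization 6 rose and 4 fell, where 12% and 14% of all genes did. With DESeq2 no member fell, where 4.67% of all genes did, and 2 were lower at an unadjusted p under 0.05. With edgeR 3 members fell, where 7.98% of all genes did. Fewer members and fewer of all genes fell when either WT library was left out. Neither count sets the family apart from the transcriptome, so the results below are on single genes.

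**Figure D1:**
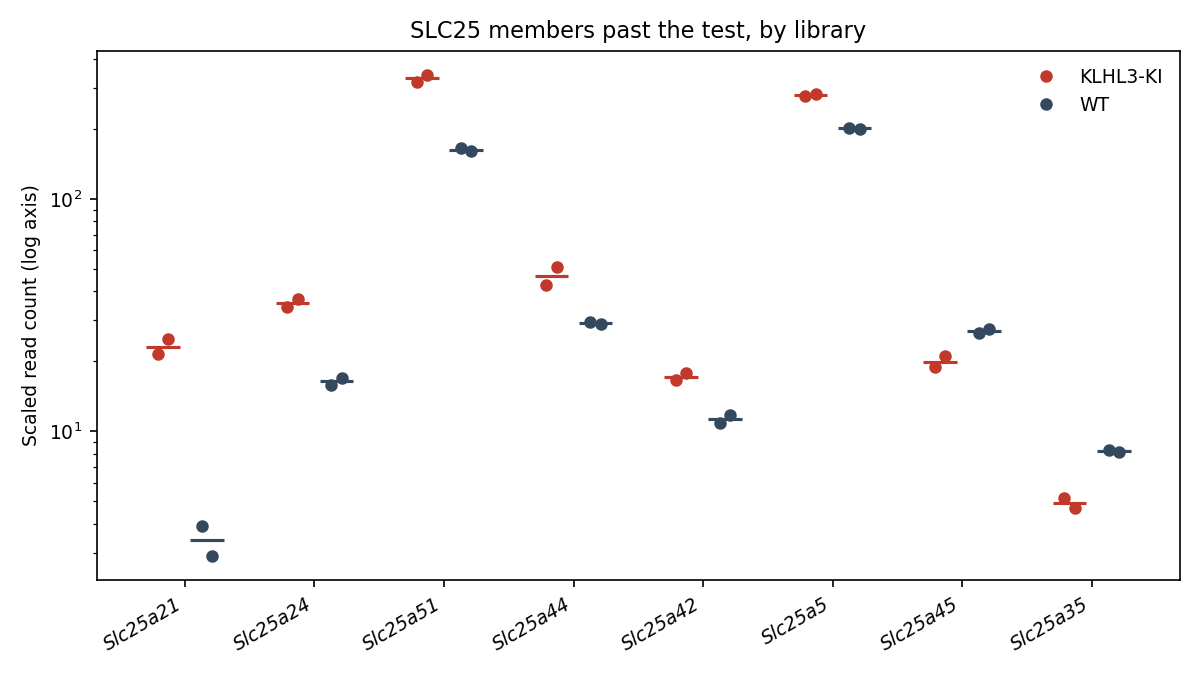
Scaled read count (log axis) of 8 of the 9 members that passed the limma test, in each KLHL3-KI and WT library (points) with the group mean (line). The plotted genes passed a test on these same values, and for each the 2 KLHL3-KI libraries lie on one side of the 2 WT libraries. Of all genes tested 32.8% lie above in this way and 31.9% below. The gap is widest for Slc25a21, at 21.5 and 24.8 against 3.92 and 2.91.

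Read per kilobase of merged exon, Slc25a5 was the highest member in every library, at 169 and 173 per kb in KLHL3-KI against 123 and 121 per kb in WT. Slc25a51 came next in KLHL3-KI at 58.0 and 62.2 per kb, above the phosphate carrier Slc25a3 at 38.8 and 39.6 per kb. In WT this order was turned, with Slc25a51 at 30.1 and 29.1 per kb below Slc25a3 at 34.2 and 34.6 per kb. Slc25a4 and the oxoglutarate carrier Slc25a11 followed, at 23.3 to 25.1 and 22.3 to 24.6 per kb over the 4 libraries, and overlapped. The exon lengths are those of the GENCODE M21 annotation, and the lengths used by the authors are not stated in the labels or files used here. They were 1646 bases for Slc25a5, 5510 for Slc25a51 and 5550 for Slc25a3. Merged exons take in all annotated transcripts of a gene and need not match the transcript expressed, so the order of genes depends on them. Before division Slc25a51 stood above Slc25a5 in KLHL3-KI, at 320 and 343 against 277 and 284.

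The carboxylate carriers link the citric acid cycle with the cytosol. Slc25a21 (ENSMUSG00000035472) imports 2-oxoadipate, an intermediate of lysine and tryptophan breakdown, in exchange for 2-oxoglutarate. It stood at 21.5 and 24.8 in KLHL3-KI, on 195 and 255 reads, against 3.92 and 2.91 in WT, on 35 and 28 reads. The group means were 23.2 ± 2.37 and 3.41 ± 0.714 (SD, n = 2 each), a ratio of 6.79. The log2 fold change was 2.46 (SE 0.18, adjusted p 1.26e-05 by limma) and ran from 1.74 to 2.76 over the 16 alternative settings, under all of which the call held. In the annotation 189 exonic bases of Slc25a21 are shared with Pax9 on the opposite strand, and Pax9 stood at 0.551 and 1.85 in KLHL3-KI against 0.448 and 0.519 in WT. The citrate carrier Slc25a1, which exports citrate for lipid synthesis, stood at 16.2 and 17.9 in KLHL3-KI against 13.2 and 13.7 in WT and did not pass (log2 change 0.32, SE 0.14, adjusted p 0.133 by limma). The dicarboxylate carrier Slc25a10 at 0.00 (SE 0.20) and the oxoglutarate carrier Slc25a11 at -0.08 (SE 0.10) did not pass either.

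The 250 bases before the annotated starts of 5 of the called members are printed to show the promoter sequence beside the genes that moved. They are RefSeq sequences of build GRCm38.p6, whereas the counts were made on GRCm39. Capitals mark matches on either strand to 6 motifs, namely AGATAA or TGATAA for GATA factors, CCNCNCCC for KLF factors, CCAAT for NF-Y, CACGTG for E-box factors and GCGGGAAA for E2F, and to the palindromic NRF1 motif. KLF matches can overlap each other, and in the window of Slc25a24 most of them lie in a single stretch made almost only of C. Slc25a21 has 2 annotated starts, and the data do not show which is used.
Slc25a21, start 1, chr12:57197473-57197722, minus strand: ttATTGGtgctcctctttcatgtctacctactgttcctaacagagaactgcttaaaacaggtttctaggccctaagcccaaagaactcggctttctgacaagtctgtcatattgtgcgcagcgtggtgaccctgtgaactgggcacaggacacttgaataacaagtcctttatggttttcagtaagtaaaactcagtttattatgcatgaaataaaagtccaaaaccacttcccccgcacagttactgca
Slc25a21, start 2, chr12:57160644-57160893, minus strand: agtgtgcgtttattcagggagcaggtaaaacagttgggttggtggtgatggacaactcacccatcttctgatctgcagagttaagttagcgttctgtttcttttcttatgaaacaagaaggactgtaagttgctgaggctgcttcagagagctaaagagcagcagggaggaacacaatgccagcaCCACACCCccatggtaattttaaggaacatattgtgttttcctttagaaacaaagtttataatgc
Slc25a24, chr3:109122899-109123148, plus strand: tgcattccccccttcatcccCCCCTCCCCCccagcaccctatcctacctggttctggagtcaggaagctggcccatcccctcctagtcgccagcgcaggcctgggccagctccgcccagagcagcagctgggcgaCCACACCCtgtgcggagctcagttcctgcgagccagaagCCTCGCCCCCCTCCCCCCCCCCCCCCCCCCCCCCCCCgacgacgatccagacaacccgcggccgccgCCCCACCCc
Slc25a5, chrX:36795347-36795596, plus strand: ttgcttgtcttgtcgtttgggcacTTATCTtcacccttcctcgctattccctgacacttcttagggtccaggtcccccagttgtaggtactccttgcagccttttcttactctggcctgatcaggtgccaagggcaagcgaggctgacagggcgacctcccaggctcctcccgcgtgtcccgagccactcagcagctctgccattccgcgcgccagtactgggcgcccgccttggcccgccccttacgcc
Slc25a42, chr8:70212282-70212531, minus strand: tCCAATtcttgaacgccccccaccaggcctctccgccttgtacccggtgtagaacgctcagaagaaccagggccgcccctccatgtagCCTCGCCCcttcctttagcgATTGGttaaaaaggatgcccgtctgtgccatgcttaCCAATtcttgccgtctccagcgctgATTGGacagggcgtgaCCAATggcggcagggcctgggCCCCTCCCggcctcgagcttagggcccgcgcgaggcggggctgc
Slc25a45, chr19:5877572-5877821, plus strand: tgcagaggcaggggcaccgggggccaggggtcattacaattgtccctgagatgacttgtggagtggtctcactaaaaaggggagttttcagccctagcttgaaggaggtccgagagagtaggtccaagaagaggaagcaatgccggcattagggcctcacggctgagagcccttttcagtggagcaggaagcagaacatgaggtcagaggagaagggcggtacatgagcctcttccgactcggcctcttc
The KLF letters stand in the windows of Slc25a21 (start 2), Slc25a24 and Slc25a42, the NF-Y letters in those of Slc25a21 (start 1) and Slc25a42, and the GATA letters in that of Slc25a5. The window of Slc25a45, which fell, held no match. RefSeq windows were found for 32 of the 41 members, 42 windows in all. Of these 61.9% held the KLF letters, against 45.9% of all 32851 windows, and 47.6% held the NF-Y letters, against 33.8%. The GATA letters stood in 7.14% of the member windows against 16.6% of all, the E-box letters in 19.0% against 6.02%, the NRF1 letters in 4.76% against 3.74% and the E2F letters in 0 against 0.895%. All windows include those of genes that code for no protein. Windows of the same gene can overlap, so a site can count more than once, as the E-box letters of Slc25a14 do. A match describes letters and is not a binding site.

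The ATP-Mg/phosphate carriers adjust the size of the matrix adenine nucleotide pool in response to calcium. Slc25a24 (ENSMUSG00000040322) stood at 34.3 and 37.2 in KLHL3-KI against 15.8 and 17.02 in WT, on 141 to 382 reads, and the groups did not overlap. Its means were 35.7 ± 2.09 in KLHL3-KI and 16.4 ± 0.882 in WT (SD, n = 2 each), or 1.08 in log2 fold change (SE 0.12, adjusted p 2.30e-04 by limma). Slc25a25, of the same subfamily, stood at 22.6 and 25.6 in KLHL3-KI against 22.3 and 22.5 in WT and did not pass (log2 change 0.10, SE 0.13). Slc25a23 stood at 9.36 and 7.69 in KLHL3-KI against 12.1 and 12.5 in WT. Its log2 fold change of -0.48 (SE 0.16) missed the threshold at a limma adjusted p of 0.0605 and passed with quantile normalization (0.0346), equal total reads (0.0197), the haemoglobin, immunoglobulin and mitochondrial genome genes removed (0.0175) and without KLHL3-KI replicate 1 (0.0325). The log2 ratio of Slc25a24 to Slc25a23 was 1.77 and 2.14 in KLHL3-KI against 0.36 and 0.42 in WT, and that of Slc25a24 to Slc25a25 was 0.58 and 0.52 against -0.47 and -0.38. With 2 libraries a group the smallest two-sided p of an exact permutation test is 0.333, so the ratios are given as a description.

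The adenine nucleotide translocases exchange cytosolic ADP for matrix ATP, and the phosphate carrier brings in the phosphate for ATP synthesis. Slc25a5 (ENSMUSG00000016319), the isoform known from dividing cells, stood at 277 and 284 in KLHL3-KI against 203 and 199 in WT, on 1815 to 2921 reads. Its log2 fold change was 0.48 (SE 0.09, adjusted p 0.00371 by limma), and it ran from 0.31 with equal total reads to 0.50 over the alternatives. Its annotated processed copy Slc25a5-ps stood at 0.220 to 0.623 in the 4 libraries, and reads of the 2 could be split between them. Slc25a4, the isoform of heart and muscle, stood at 58.6 and 54.9 in KLHL3-KI against 59.1 and 58.3 in WT and did not pass (log2 change -0.05, SE 0.10, adjusted p 0.762 by limma). The log2 ratio of Slc25a4 to Slc25a5 was -2.22 and -2.35 in KLHL3-KI against -1.76 and -1.76 in WT. The phosphate carrier Slc25a3 stood at 216 and 220 in KLHL3-KI against 190 and 192 in WT and did not pass (log2 change 0.19, SE 0.09, adjusted p 0.149 by limma). The testis isoform Slc25a31 was under the minimum, with 5 and 2 reads in KLHL3-KI and 2 and 3 in WT.

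Of 11 tested cofactor and nucleotide carriers 2 rose and 1 fell. Slc25a51 (ENSMUSG00000045973), which imports NAD into the matrix, stood at 320 and 343 in KLHL3-KI against 166 and 160 in WT, on 1480 to 3517 reads. Its means were 331 ± 16.2 in KLHL3-KI and 163 ± 3.69 in WT (SD, n = 2 each), or 1.02 in log2 fold change (SE 0.09, adjusted p 3.96e-05 by limma). Slc25a42 (ENSMUSG00000002346), an exchanger of coenzyme A for adenine nucleotides, stood at 16.6 and 17.7 in KLHL3-KI against 10.9 and 11.7 in WT. Its log2 fold change of 0.56 (SE 0.14, adjusted p 0.0185 by limma) lost its call without WT replicate 1 (0.110), without WT replicate 2 (0.0799), without KLHL3-KI replicate 2 (0.0773), with equal total reads (0.0593) and with DESeq2 (0.115). Slc25a16, also linked to coenzyme A, stood at 11.3 and 14.9 in KLHL3-KI against 12.98 and 14.8 in WT and did not pass (log2 change -0.09, SE 0.17).
Of the carriers of this group 8 did not pass. The pyrimidine nucleotide carrier Slc25a36 stood at 111 and 117 in KLHL3-KI against 113 and 114 in WT, and its fellow Slc25a33 at 6.61 and 5.16 against 5.48 and 4.88, with log2 fold changes of 0.00 (SE 0.09) and 0.15 (SE 0.19). Log2 fold changes were 0.33 (SE 0.15) for the carnitine-acylcarnitine carrier Slc25a20 and 0.30 (SE 0.12) for the peroxisomal cofactor carrier Slc25a17, both with no overlap of the groups. They were -0.02 (SE 0.15) for the glutathione carrier Slc25a40, -0.06 (SE 0.12) for the folate carrier Slc25a32 and -0.08 (SE 0.17) for the S-adenosylmethionine carrier Slc25a26. The glutathione carrier Slc25a39, left out by the rule, stood at 98.5 and 103 in KLHL3-KI against 64.2 and 65.2 in WT, and its log2 ratio to Slc25a40 was 2.53 and 2.49 against 1.70 and 2.01.

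**Figure D2:**
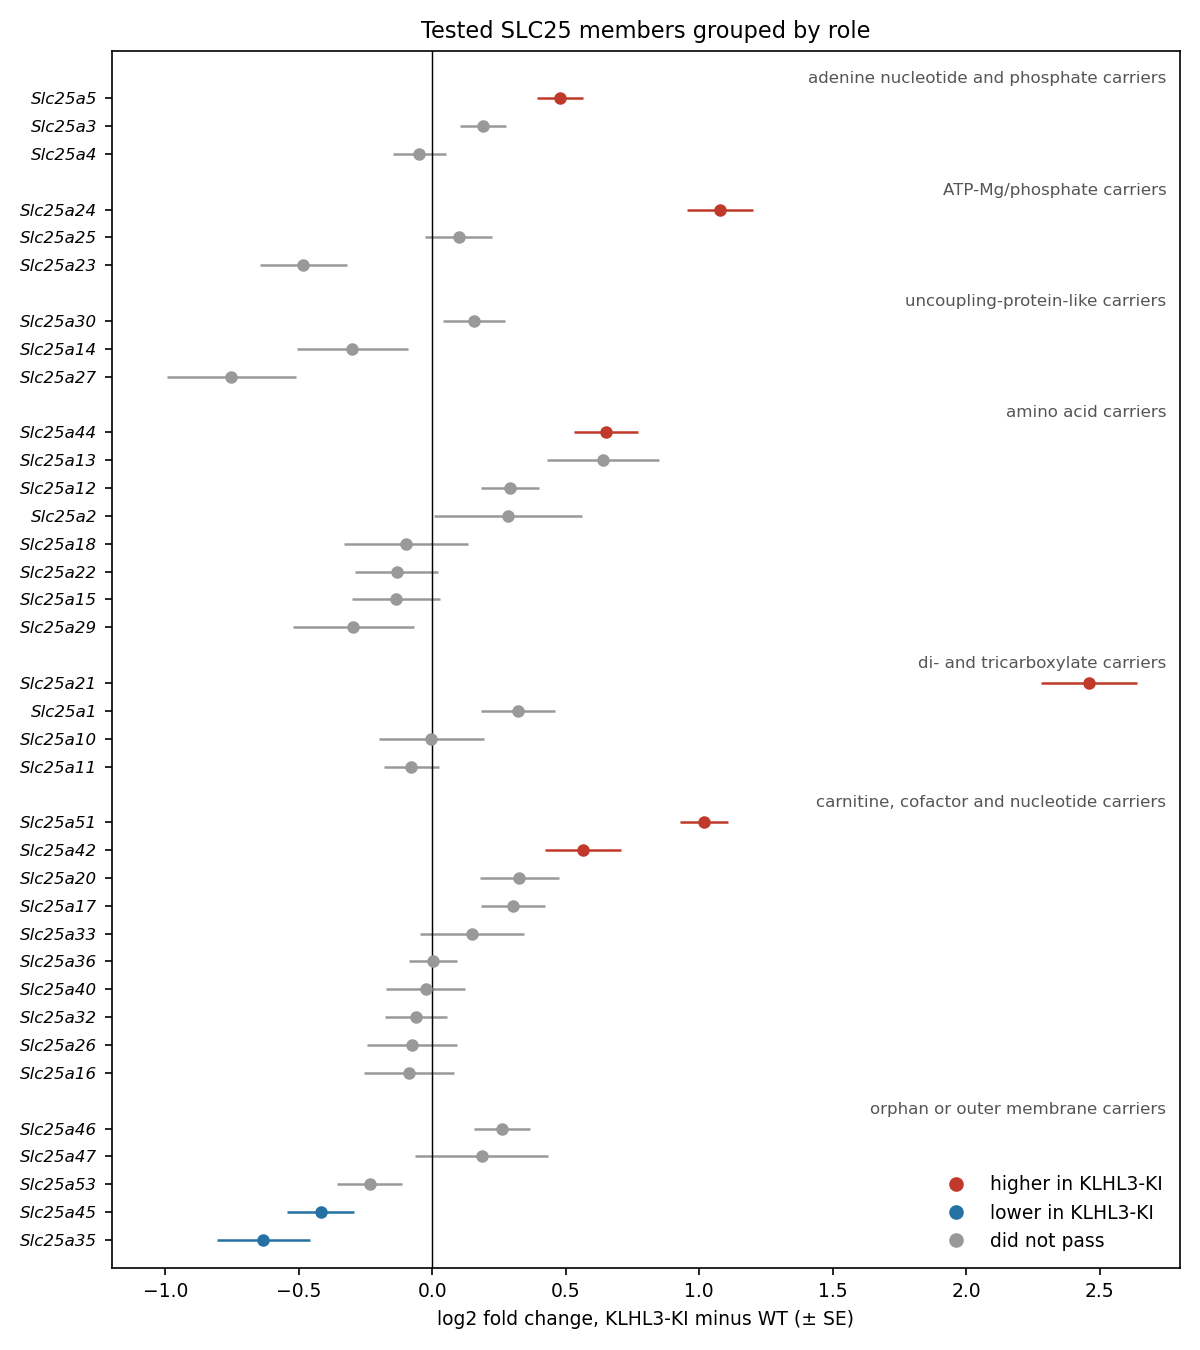
Log2 fold change (KLHL3-KI minus WT, ± SE of the limma fit, n = 2 libraries per group) of 36 of the 37 tested members, grouped by role. Red points rose, blue points fell and grey points did not pass; Slc25a21 stands apart at 2.46, and the orphan group holds 2 of the 3 falls.

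Amino acid carriers feed the urea cycle, the malate-aspartate shuttle and amino acid breakdown. Slc25a44 (ENSMUSG00000050144), a carrier of branched-chain amino acids, stood at 42.6 and 50.7 in KLHL3-KI against 29.5 and 29.1 in WT, on 264 to 521 reads. Its log2 fold change was 0.65 (SE 0.12, adjusted p 0.00428 by limma), and the call was lost only without WT replicate 2 (0.0558) among the 16 alternatives. The aspartate/glutamate carriers of the malate-aspartate shuttle did not pass. Slc25a12 stood at 45.3 and 50.5 in KLHL3-KI against 38.6 and 39.3 in WT (log2 fold change 0.29, SE 0.11, adjusted p 0.0874 by limma), and Slc25a13 at 4.85 and 6.62 against 3.47 and 3.11 (0.64, SE 0.21, adjusted p 0.0567 by limma). Slc25a13 passed without KLHL3-KI replicate 1 (0.0216).
The ornithine carrier Slc25a15 of the urea cycle stood at 8.59 and 10.4 in KLHL3-KI against 10.6 and 10.4 in WT, and its log2 fold change of -0.14 (SE 0.16) did not pass. Its intronless relative Slc25a2 stood at 2.53 and 1.36 against 1.12 and 1.66, on 10 to 23 reads, and did not pass (log2 change 0.28, SE 0.28). The glutamate carriers Slc25a22 at -0.13 (SE 0.16) and Slc25a18 at -0.10 (SE 0.23) and the basic amino acid carrier Slc25a29 at -0.30 (SE 0.23) on the log2 scale did not pass.

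None of the 3 uncoupling-protein-like carriers passed. Slc25a27 stood at 1.54 and 2.53 in KLHL3-KI against 3.58 and 4.57 in WT, on 14 to 44 reads, the lowest log2 fold change of the tested members at -0.75 (SE 0.24). It missed the threshold at a limma adjusted p of 0.0526 and passed under 5 alternatives, among them equal total reads (0.0267) and a pseudocount of 5 (0.0465). Slc25a14 stood at 2.42 and 2.53 in KLHL3-KI against 3.24 and 3.32 in WT, and Slc25a30 at 27.5 and 29.5 against 25.6 and 25.3, with log2 fold changes of -0.30 (SE 0.21) and 0.16 (SE 0.12).

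Among carriers with no settled substrate, Slc25a35 and Slc25a45 fell. Slc25a35 (ENSMUSG00000018740) stood at 5.18 and 4.67 in KLHL3-KI against 8.28 and 8.10 in WT, on 47 and 48 reads against 74 and 78, and fell by 0.63 on the log2 scale (SE 0.17, adjusted p 0.0281 by limma). In the annotation it shares 1151 of 3677 exonic bases with Rangrf on the opposite strand. Rangrf stood at 10.4 and 11.6 in KLHL3-KI against 4.92 and 5.40 in WT and rose by 0.96 (SE 0.17, adjusted p 0.00339 by limma). Per the labels the libraries are directional, but whether the counting used it is not stated in the labels or files used here, so reads of the pair may not be fully separate. Slc25a45 (ENSMUSG00000024818) stood at 18.8 and 21.04 in KLHL3-KI against 26.4 and 27.5 in WT and fell by 0.42 (SE 0.12, adjusted p 0.0390 by limma).
Both calls were lost when single libraries were left out. That of Slc25a35 was lost without WT replicate 1 (0.131), WT replicate 2 (0.133) or KLHL3-KI replicate 2 (0.102), with no filter on low values (0.0552) and with DESeq2 (0.198). That of Slc25a45 was lost without WT replicate 1 (0.131), WT replicate 2 (0.198) or KLHL3-KI replicate 1 (0.126), with no filter (0.0521), without a trend (0.0779) and with DESeq2 (0.169).
The outer membrane protein Slc25a46, which acts in mitochondrial dynamics, stood at 49.8 and 54.3 in KLHL3-KI against 44.3 and 42.2 in WT and did not pass (log2 change 0.26, SE 0.11, adjusted p 0.110 by limma). Slc25a53 at -0.24 (SE 0.12) and Slc25a47 at 0.18 (SE 0.25) did not pass. Slc25a53 passed as lower with equal total reads (0.0394) and with the haemoglobin, immunoglobulin and mitochondrial genome genes removed (0.0471). Slc25a34 and Slc25a43 were under the minimum, at 0.551 to 0.727 and 0.623 to 0.895. Slc25a48 had 0 reads in both KLHL3-KI libraries and 1 and 3 reads in WT, where 0 reads allow a value of up to 0.330 and 0.292.

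**Figure D3:**
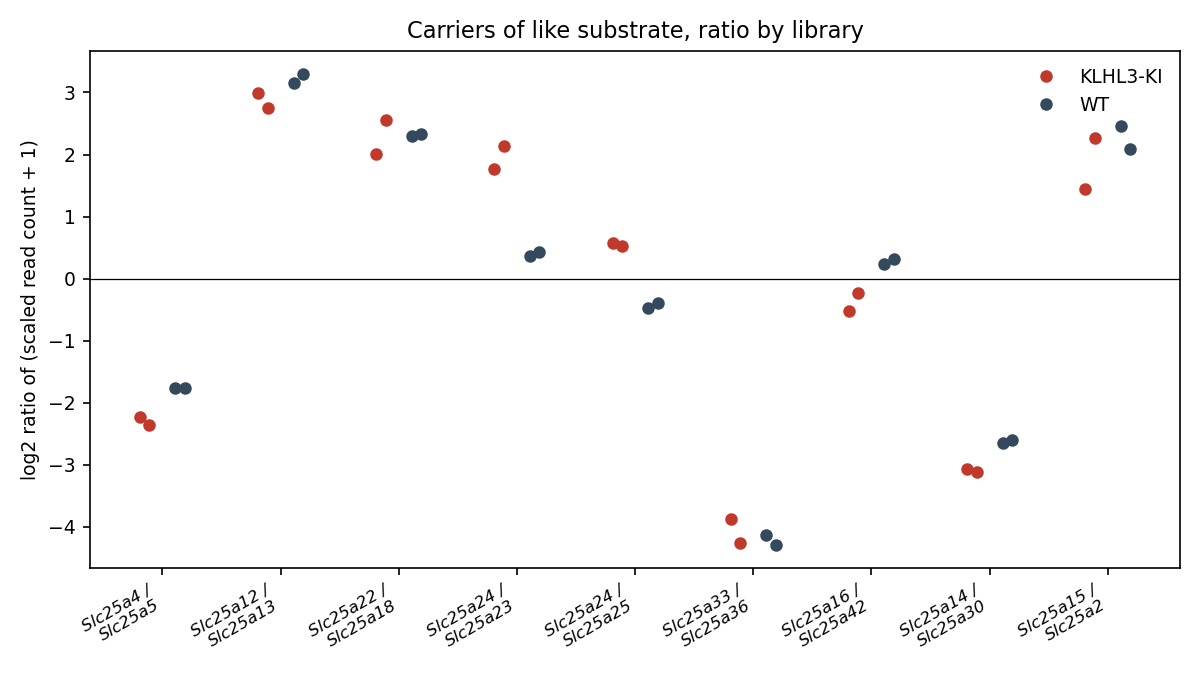
Log2 ratio of (scaled read count + 1) between carriers of like substrate, in each KLHL3-KI and WT library (points). The values are not per length, so only the shift between groups can be read; it is clearest for Slc25a24 against Slc25a23, at 1.77 and 2.14 against 0.36 and 0.42.

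The 4 carriers left out by the rule all passed. The mitoferrin Slc25a37 stood at 1299 and 1466 in KLHL3-KI against 480 and 448 in WT, and the glycine carrier Slc25a38 at 57.4 and 68.2 against 24.7 and 18.6, while the second mitoferrin Slc25a28 was lower, at 26.7 and 26.2 against 32.9 and 36.0. Family members that bear other names were mixed: the uncoupling protein Ucp2 rose by 0.48 (SE 0.12) and the outer membrane insertase Mtch2 by 0.43 (SE 0.10), and Ucp3 and Mtch1 did not pass.

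Genes that work with the carriers were followed in 10 lists. Of the 71 tested 25 rose (35.2%, where 15.2% of all genes did) and 1 fell (1.41%, where 7.56% did), and the median log2 fold change was 0.21, against 0.0026 for the carriers; that difference was not tested. All 3 outer membrane VDAC channels (Vdac1, Vdac2 and Vdac3), through which carrier substrates reach the inner membrane, rose, Vdac1 at 106 and 117 in KLHL3-KI against 60.7 and 70.3 in WT. Of 5 ornithine and polyamine enzymes 4 rose (Odc1, Arg2, Srm and Oat), with the ornithine decarboxylase Odc1 at 384 and 435 in KLHL3-KI against 126 and 113 in WT, or 1.77 in log2 fold change (SE 0.10), beside the ornithine carrier Slc25a15, which did not pass.
Of 7 enzymes of the malate-aspartate shuttle and citrate export 4 rose, among them Mdh2, Got1 and Cs, and of 9 mitochondrial folate and glycine cleavage enzymes 4 rose (Mthfd2, Mthfd1l, Dld and Shmt2), with Mthfd2 at 39.2 and 49.7 in KLHL3-KI against 23.9 and 23.0 in WT. The carnitine acetyltransferase Crat rose by 1.01 (SE 0.11), at 52.5 and 51.1 in KLHL3-KI against 27.1 and 23.7 in WT. Of 10 genes of the TIM22 import route 3 rose (Timm8a1, Timm8b and Timm10, small chaperones of the space between the membranes), and the call of Timm10 was lost under 8 of the 16 alternatives. The small chaperones Timm9, Timm10b and Timm13 and the channel Timm22 did not pass. Of 11 other inner membrane transporters 3 rose, among them the serine carrier Sfxn1 and the pyruvate carrier subunit Mpc2. Of 7 calcium uniporter genes Smdt1 rose, and of 10 genes of mitochondrial nucleotide supply and DNA upkeep none rose and Rrm2b fell.
With equal total reads 14 of the 71 partner genes rose, where 11.3% of all genes did. Fewer partner genes than 25 rose when either WT library or KLHL3-KI replicate 2 was left out, and fewer of all genes did. The calls of Crat, Mthfd2, Odc1, Sfxn1, Timm8a1 and Vdac1 held under all 16 alternatives, and those of no other partner gene did. The call of Got1 was lost under 8, those of Cs, Shmt2, Vdac2 and Smdt1 under 7 each, and that of Rrm2b under 4.

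**Figure D4:**
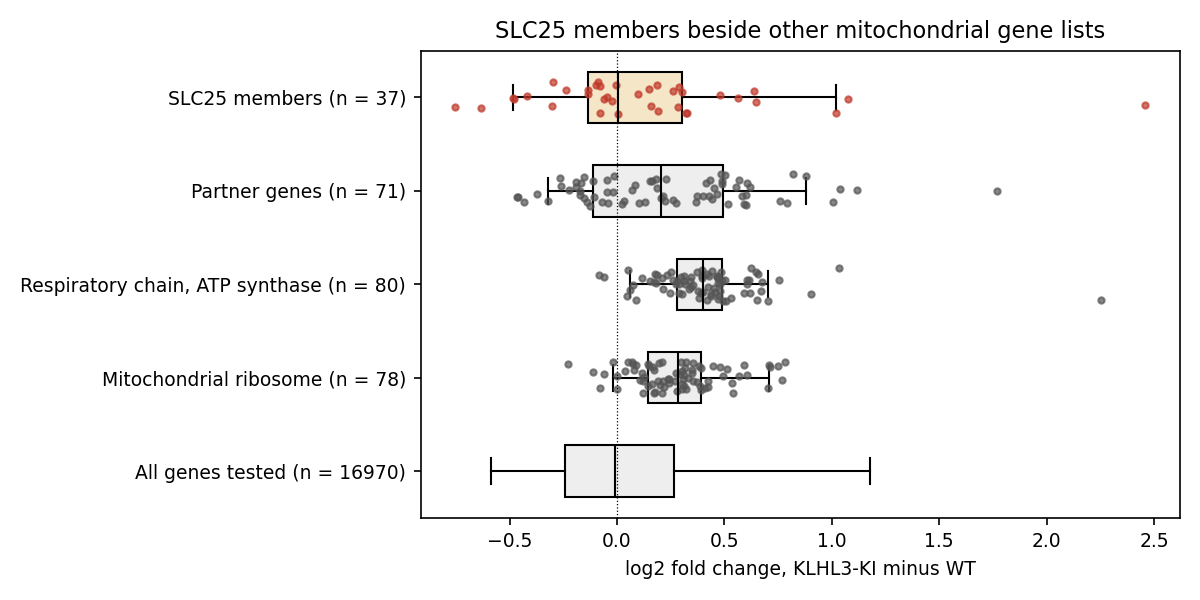
Log2 fold change (KLHL3-KI minus WT) of the tested genes of 4 mitochondrial lists (points) and of all genes tested; boxes give the quartiles with the median, whiskers the 5th and 95th percentile. The median of the SLC25 members, 0.0026, lies near that of all genes, -0.01, while that of the respiratory chain list is 0.40.

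Other mitochondrial gene sets are given beside the carriers as values. Of 80 nuclear-encoded subunits of the respiratory chain and ATP synthase 45 rose (56.25%, where 15.2% of all genes did) with limma. None fell, where 7.56% of all genes did. With edgeR 45 rose and none fell, and 58 were higher and 0 lower at an unadjusted limma p under 0.05. The median was 0.40. With equal total reads 25 rose, where 11.3% of all genes did. With DESeq2 28 rose, where 11.9% of all genes did, and without a mean-variance trend 17 rose, where 10.6% did. After quantile normalization 26 rose, where 12% of all genes did. With haemoglobin, immunoglobulin and mitochondrial genome genes removed 27 rose, where 12.5% did. Fewer than 45 rose when either WT library or KLHL3-KI replicate 2 was left out, and fewer of all genes did. Of 78 mitochondrial ribosomal proteins 14 rose (17.9%, where 15.2% of all genes did), with a median of 0.29. No ribosomal protein fell, where 7.56% of all genes did, and 31 were higher and 0 lower at an unadjusted limma p under 0.05. Both KLHL3-KI values lay above both WT values for 58 and below them for 1, where the shares over all genes were 32.8% and 31.9%. Of these proteins 5 rose with equal total reads, where 11.3% of all genes did, and 6 with DESeq2, where 11.9% did. Fewer than 14 rose when either WT library or KLHL3-KI replicate 2 was left out, and more when KLHL3-KI replicate 1 was. Log2 fold changes spread from -0.75 to 2.46 over the carriers, from -0.08 to 2.25 over the respiratory chain list and from -0.23 to 0.78 over the ribosomal proteins.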

How the data were processed

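Spleen RNA of 2 KLHL3-KI and 2 WT libraries was compared. Per the submitters' processing notes, Trimmomatic 0.38, RSEM 1.3.0, Bowtie2 and edgeR were used with build GRCm39, and what each tool did, with which annotation and filters, is not stated there. The deposited normalized counts are a signal per gene on a scale of 1 factor per library: dividing a library by its lowest value above 0 gave whole reads for 100% of values (within 0.001), and edgeR on those reads called 2533 genes higher and 1355 lower. Columns were matched to samples by the library names. Symbols came from an annotation of GRCm38 for 23605 of 23763 genes (99.3%), and because the builds differ the only coordinates given are those of the RefSeq promoter windows, on GRCm38.p6.

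Values were analysed as log2(value + 1) with limma 3.58.1 in R 4.3.3 (mean-variance trend, no covariate, two-sided, adjusted over 16970 genes with a mean of at least 1). The same fit was also run on simulated counts scaled to equal total reads, unlike the authors' scale used here. Its outcome is not given here. The 16 alternatives were pseudocounts of 0.1 and 5, no filter or a mean of at least 5, 4 other scalings, edgeR 4.0.16 and DESeq2 1.42.0 on the recovered reads, no trend, a replicate block, and each library left out. The members and lists were chosen with earlier results of these data known. By rule every member was to be named, and of each partner list those that passed, up to 4 with the lowest p. A few of these genes count in the totals but are not reported here by name, and other genes named beside them (Ucp3, Mtch1, Timm9, Timm10b, Timm13, Timm22) were chosen after their values were seen. The respiratory chain and ribosomal protein lists were added after the data were seen. An upper limit for 0 reads is the value of 3 reads. The 8535483 to 10933023 reads a library and n = 2 limit the precision, and the limits for 0 reads cover counting error only.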

Additional observations from a re-analysis of the deposited data

How the results depend on the processing

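The rises of Slc25a21, Slc25a24, Slc25a51 and Slc25a5 passed under all 16 alternatives. That of Slc25a5 passed narrowly without a mean-variance trend (limma adjusted p 0.0482). The number of members that rose was 4 to 7 without 1 library and 5 or 6 under the other alternatives. The number that fell, 3, was 0 with DESeq2 (2 at an unadjusted p under 0.05), where 4.67% of all genes fell. It was 1 with no filter on low values and 1 without a mean-variance trend, where 4.51% and 3.88% of all genes fell. Fewer members and fewer of all genes fell when either WT library was left out. The number was 6 both with equal total reads and with haemoglobin, immunoglobulin and mitochondrial genome genes removed. Those 2 scalings shift the median of all genes by -0.15 and -0.13 on the log2 scale. The members' median was -0.16 and -0.13 there, -0.070 after quantile normalization, 0.051 with a mean of at least 5, and -0.00022 to 0.079 without 1 library. The share of falls among calls moved with the scaling: 5 members rose and 6 fell with equal total reads, 6 and 6 with the gene classes removed and 6 and 4 after quantile normalization. Of all genes 18.4%, 17.7% and 14.0% fell there, and 11.3%, 12.5% and 12% rose. Partner genes that rose, 25, were 12 without a trend, where 10.6% of all genes rose, and 14 with equal total reads, where 11.3% did. Fewer rose when either WT library or KLHL3-KI replicate 2 was left out. Partner genes that fell, 1, were 4 after quantile normalization, 5 with equal total reads, 5 with the gene classes removed, 2 with a mean of at least 5, 2 with edgeR, 0 with DESeq2, 0 without a trend and 0 to 1 without 1 library. Over all named genes, 855 single-gene values kept their call and direction, 108 lost the call, 12 gained it and 24 changed sign, the last in 10 members, none of which passed in either fit. Slc25a10 was 0.0041 with median-ratio factors and 0.0061 with DESeq2. Slc25a25 was -0.026 under quantile scaling, -0.063 under equal totals and -0.034 without the gene classes, and Slc25a36 was -0.12, -0.16 and -0.13 there, -0.011 with edgeR and -0.0026 with DESeq2. Slc25a30 was -0.0063 with equal total reads. Without 1 library, Slc25a2 ran from -0.0066 to 0.57, Slc25a10 from -0.26 to 0.25, Slc25a16 from -0.27 to 0.096, Slc25a18 from -0.25 to 0.054, Slc25a33 from -0.0026 to 0.30, Slc25a36 from -0.035 to 0.040, Slc25a40 from -0.17 to 0.12 and Slc25a47 from -0.025 to 0.39. Where no construction shows it, the cause was not tested.

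The titles number the replicates 1 and 2 in both groups. In the library names the number of replicate 2 is shared by the groups and that of replicate 1 is not. Deviations of same-numbered libraries from their group means had a correlation of r = -0.0325 across 16970 genes, which are not independent. With 2 libraries a group this value cannot show whether same-numbered libraries share more than a number, and the labels do not say. With the number as a replicate block, 6 members rose and 4 fell, the fourth being Slc25a27, and 25 partner genes rose and 1 fell.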
